A study of Callithrix jacchus with 4 samples.

Results

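CD9, CD63 and CD81 are 3 tetraspanin genes, and their levels were followed here across the 7 annotated cell types of the marmoset primary visual cortex (V1) after focal ischemic injury. The members were taken by gene symbol from the UMI tables of both cohorts, and all 3 were found among the 16383 genes that the tables share. They were picked with their injured and control levels already known, so the comparison of the cohorts for these 3 genes is a description without a test. For the members, only splits of nuclei within the injured animals, which that choice did not use, were tested. Lists of related genes were fitted on the comparison of the cohorts and are given as descriptions.

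Tetraspanins are small membrane proteins that cross the membrane 4 times and gather integrins, adhesion receptors and proteases into membrane domains. CD9 lies mainly at the plasma membrane, where it takes part in adhesion, migration and membrane fusion. CD63 is a protein of late endosomes and lysosomes that cycles to the cell surface, and CD81 is a surface protein with immunoglobulin superfamily partners. The trio is best known as a set of marker proteins of exosomes, the small vesicles that cells release from late endosomes. In brain, CD9 is a known protein of oligodendrocytes and their precursors, and CD81 of astrocytes and microglia.

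Single-nucleus libraries were made on the 10x platform from frozen gray matter of the V1 operculum of adult common marmosets. The injured cohort comprised 3 animals, F1565, F1619 and F1711, each given injections of endothelin-1, a peptide that constricts vessels, and each sampled 7 days later as 1 library that took in the core and the penumbra. The control cohort comprised 3 animals without injury. Their nuclei were pooled in 1 library, and how far control animals differ from each other is therefore unknown. Nuclei of the cohorts also differed in isolation (ultracentrifugation against sorting of stained nuclei), sequencing facility and instrument, and doublet removal, none of which can be told apart from injury.

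The injured libraries held 12527, 7500 and 9510 nuclei with a median of 3531, 4504.5 and 4229.5 UMIs, and the control library held 8610 nuclei with a median of 2117. The control held few glial and vascular nuclei: 594 astrocytes (Astro), 1122 oligodendrocytes (Oligo), 171 oligodendrocyte precursor cells (OPC), 129 microglia and 181 endothelial cells (Endo), against 5402 excitatory neurons (ExN) and 1011 inhibitory neurons (InN). Pairs of libraries shared 15 to 27 cell barcodes. Of the markers the study used for naming, 32 of 33 in the injured cohort and 31 of 32 in the control were highest in their own type. CD74, a microglial marker of that set, had a UMI in 1 of the 129 control microglia, so that it did not mark them. Within control Endo nuclei the 3 endothelial markers summed to 848 CPM, counts per 1000000 UMIs, and 5 fibroblast markers to 5287, whereas in the injured animals they summed to 3404 to 4096 and 1297 to 2476.

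All members stood higher after injury in every cell type. Each of the 3 injured animals lay above the control in 21 of 21 pairs of member and cell type. Over the 16383 genes in both tables, 37.2% of gene and cell type pairs with a UMI showed the same. Genes listed for the injured cohort alone are not in that share. CD63 had the widest gaps and the fewest control UMIs. A level is given below as CPM, the UMIs of the gene per 1000000 UMIs of that cell type in that library, and a level was compared only with the same gene elsewhere, because intron reads were counted and no length was taken out. Intervals are 95% exact Poisson intervals for levels and exact binomial ones for shares. They cover counting error only. The interval of a ratio holds the counting error of the control alone. It takes the injured mean as exact and leaves out the spread between animals.

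CD9 was highest in the oligodendrocyte lineage. In OPC its level was 369.98 CPM in F1565, 216.1 in F1619 and 215.3 in F1711, against 69.5 (interval 37.0 to 118.9) in the control, where it rested on 13 UMIs. In oligodendrocytes the values were 254.0, 288.04 and 255.1 CPM, against 43.1 (32.4 to 56.0) from 55 UMIs. The injured mean was thus 267 ± 89.1 CPM in OPC and 266 ± 19.4 in oligodendrocytes (SD, n = 3), which is 3.84 and 6.17 times the control level (counting intervals 2.25 to 7.21 and 4.74 to 8.19). These lineage values stood clear of every other type in the injured animals, and only in OPC did 1 animal, F1565, lie well above the other two.

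In astrocytes CD9 reached 170.8, 142.5 and 135.7 CPM against 23.1 (14.1 to 35.7) in the control, a ratio of 6.47 (4.19 to 10.6). In Endo nuclei it was 191.0, 179.2 and 146.3 CPM against 44.1 (20.2 to 83.7), a ratio of 3.90 (2.06 to 8.54). Astrocytes and Endo nuclei overlapped each other across the animals. Microglia had the lowest CD9 of the glial types, with 49.0, 44.8 and 43.8 CPM, all 3 close together. Their control held 2 CD9 UMIs, or 16.1 CPM (1.95 to 58.0), so the ratio of 2.85 had a counting interval of 0.79 to 23.6, and a difference was not detectable at this depth.

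CD63 was nearly absent from the control counts. The whole control library held 5 CD63 UMIs in astrocytes, 2 in oligodendrocytes, 1 in OPC, 1 in Endo nuclei, 16 in ExN, 2 in InN and 0 in 129 microglia. In the injured astrocytes CD63 stood at 109.7, 159.8 and 182.4 CPM against 5.78 (1.88 to 13.5), a ratio of 26.1 (11.2 to 80.3). The control interval lay far under the lowest animal.

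Microglial CD63 was 217.1 CPM in F1565, 155.0 in F1619 and 161.8 in F1711, a mean of 178 ± 34.0 (SD, n = 3). Against a floor of 3 UMIs in the control library this was at least 7.38-fold higher, and the lower counting limit of the ratio, from the exact Poisson interval, was 6.004. Endo nuclei held 151.4, 270.9 and 222.9 CPM of CD63 against 4.90 (0.124 to 27.3) in the control, and OPC held 154.0, 157.0 and 145.5 against 5.35 (0.135 to 29.8). Oligodendrocytes had the lowest CD63 of the non-neuronal types, 69.4, 111.5 and 89.2 CPM, against 1.57 (0.19 to 5.66) in the control. Among Endo, microglia, OPC, astrocytes and oligodendrocytes each neighbor in the order of CD63 levels overlapped the next across the 3 animals, so that no single type led. The ratios of 28.4 in OPC, 43.9 in Endo and 57.5 in oligodendrocytes rested on 1 or 2 control UMIs, with counting intervals of 5.10 to 1123, 7.88 to 1734 and 15.9 to 475.

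CD81 had a single leading type. Endo nuclei held 702.9, 681.6 and 651.0 CPM in the injured animals, above every other type in each animal. The control held 63.7 (33.9 to 108.9), a ratio of 10.7 (6.23 to 20.0). In control Endo nuclei fibroblast markers summed to 5287 CPM and endothelial markers to 848. In the injured animals they summed to 1297 to 2476 and 3404 to 4096. The part of this difference in the ratio was not tested. The injured mean of CD81 in Endo nuclei was 678 ± 26.1 CPM (SD, n = 3). Astrocytes held 342.7, 269.6 and 272.2 CPM against 55.5 (40.9 to 73.6), a ratio of 5.31 (4.01 to 7.21). Oligodendrocytes held 265.4, 209.0 and 212.9 CPM against 26.6 (18.4 to 37.2), a ratio of 8.61 (6.16 to 12.4).

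In OPC, CD81 was 443.1, 264.8 and 288.03 CPM against 48.1 (22.02 to 91.4). Microglia held 383.8, 212.2 and 209.7 CPM against 16.1 (1.95 to 58.0), where the control again held 2 UMIs and the ratio was 16.7 (4.63 to 138). OPC, astrocytes, microglia and oligodendrocytes followed Endo nuclei in that order of means and overlapped their neighbors. F1565 was the highest of the 3 animals for CD81 in every non-neuronal type. The same held for CD9 in OPC, astrocytes, microglia and Endo nuclei and for CD63 in microglia. It was the lowest for CD63 in astrocytes, oligodendrocytes, Endo nuclei and both neuron types, and for CD9 in oligodendrocytes and ExN. Leaving that animal out moved the log2 ratio from 4.06 to 3.71 for CD81 in microglia and from 1.94 to 1.63 for CD9 in OPC.

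In the control library each type's interval overlapped that of the next in the order of levels for all 3 genes. Some types further apart separated. CD9 and CD81 in OPC, oligodendrocytes, astrocytes and Endo nuclei lay above both neuron types. CD63 in astrocytes (1.88 to 13.5) lay above ExN (0.54 to 1.52) but overlapped InN. At equal depth, with every nucleus thinned to 1000 UMIs and shallower nuclei left out, some log2 ratios moved by more than 1.5-fold: from 1.94 to 3.36 for CD9 in OPC, from 3.12 to 3.89 for CD9 in InN, from 4.70 to 3.996 for CD63 in astrocytes, from 5.46 to 4.15 for CD63 in Endo nuclei and from 4.20 to 3.55 for CD63 in ExN. With nuclei of at most 2500 genes, the CD63 values moved from 4.83 to 3.98 in OPC and from 5.09 to 6.17 in InN. All of these pairs stayed above the control.

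**Figure D1:**
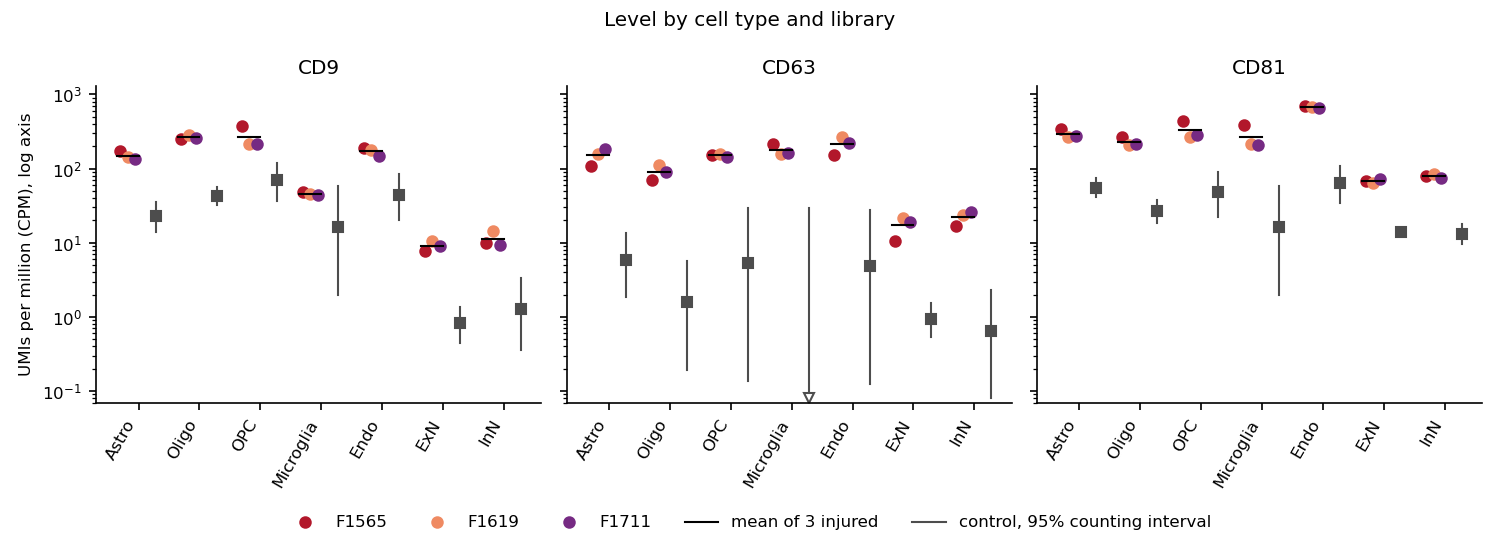
Levels of CD9, CD63 and CD81 (CPM, log axis) in the 7 cell types. Colored round points are the 3 injured animals, and gray squares are the pooled control library with its 95% exact Poisson interval. The open triangle at the bottom is CD63 in control microglia, which had no UMI. Every injured point lies above the control value of its cell type, and both neuron types lie lowest in the injured animals.

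The share of nuclei with a UMI was also compared at equal depth, where the gaps were narrower. At 1000 UMIs per nucleus CD81 was found in 40.9% ± 1.55 of injured Endo nuclei (SD, n = 3) against 5.88% of 85 control nuclei (interval 1.94 to 13.2), and in 25.8% ± 1.93 of injured astrocytes against 4.70% of 362 (2.76 to 7.41). Without thinning the astrocyte shares were 60.3%, 65.9% and 64.4% against 7.74%. Thinning lowered the injured shares of each member in each type and animal. They stayed above the control interval except for CD9 in microglia, at 4.90%, 4.67% and 4.25% against 0 of 37 nuclei with an interval up to 9.49%, and CD9 in the Endo nuclei of F1711, at 11.1% against 5.88% (1.94 to 13.2).

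CD9 was found in 22.6% ± 2.16 of thinned injured oligodendrocytes against 3.85% of 467 control nuclei (2.30 to 6.02), and in 22.01% ± 5.35 of OPC against 2.50% of 80 (0.304 to 8.74). CD63 was found in 14.6% ± 1.76 of thinned injured microglia against 0 of 37 control nuclei, an interval that reaches 9.49%. It was found in 11.7% ± 1.57 of astrocytes against 0.829% of 362 (0.171 to 2.40). Left out as too shallow were 922, 512 and 751 nuclei of F1565, F1619 and F1711 and 1506 of the control, so the thinned control microglia are the deepest of their type. The unthinned CD63 shares in microglia were 32.9%, 37.3% and 34.3% against 0 of 129, with an interval up to 2.82%.

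**Figure D2:**
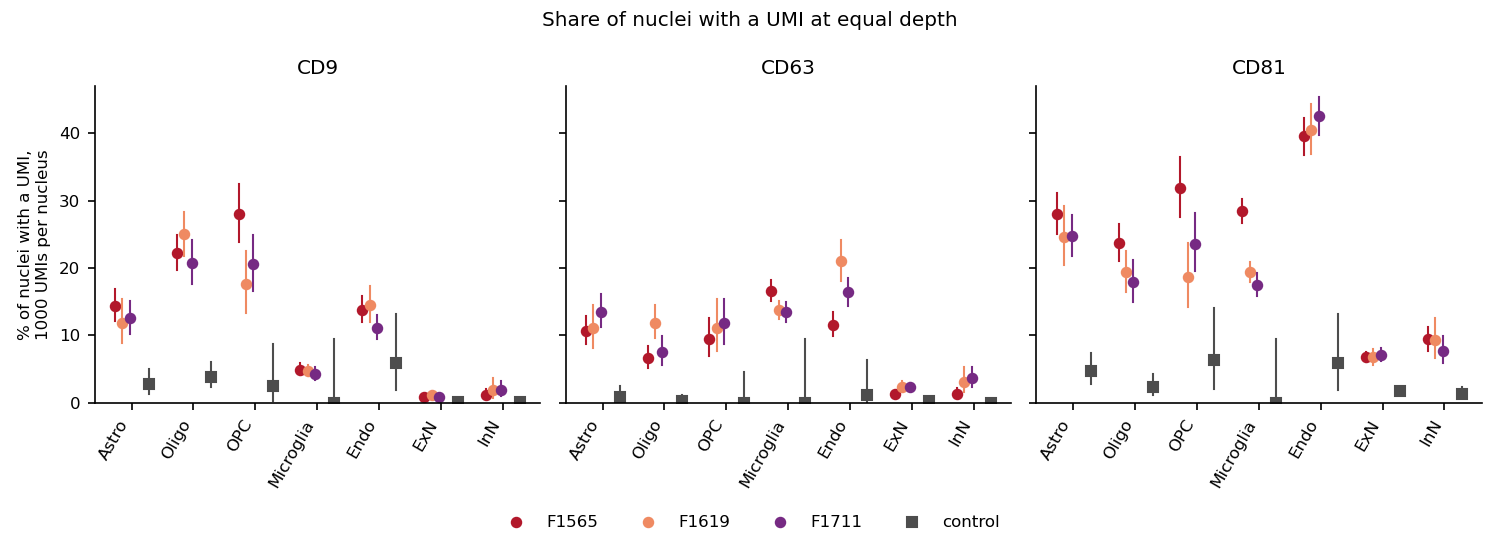
Percent of nuclei with at least 1 UMI of each member after every nucleus was thinned to 1000 UMIs, by cell type. Points are the 3 injured animals and the pooled control library, whose bar is the 95% exact binomial interval. CD81 in Endo nuclei reaches 39.5% to 42.6% in the injured animals, and neurons stay under 10% for all 3 genes.

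Neurons held the lowest levels of each member in the injured animals. In ExN, CD81 was 68.5, 64.0 and 72.6 CPM against 13.9 (12.2 to 15.8) in the control, which rested on 238 UMIs, a ratio of 4.91 (4.32 to 5.60). CD63 was 10.6, 21.9 and 19.2 CPM against 0.936 (0.535 to 1.52), and CD9 was 7.85, 10.7 and 8.94 CPM against 0.819 (0.448 to 1.37). InN held 78.8, 84.5 and 74.3 CPM of CD81 against 13.3 (9.54 to 18.03), 16.9, 23.6 and 25.7 of CD63 against 0.648, and 10.1, 14.4 and 9.41 of CD9 against 1.30.

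These neuronal levels were set beside genes that neurons should lack, since free RNA in droplets gives UMIs in nuclei that do not express a gene. In injured ExN, CD63 stood at 6.99% to 8.62% and CD81 at 9.39% to 11.2% of their Endo levels, and CD9 at 2.12% to 4.95% of its OPC level. The microglial genes CD74 and P2RY12 stood in the same nuclei at 6.89% to 16.0% and 6.98% to 10.5% of their microglial levels, and the myelin gene MBP at 1.40% to 1.90% of its oligodendrocyte level. CD74 had a UMI in 11.4%, 15.1% and 8.04% of thinned injured ExN and in 0.427% of control ExN. CD81 had one in 6.80%, 6.74% and 7.11% of the same injured ExN and in 1.65% of control ExN, with median depths before thinning of 5378 to 7077 UMIs in the injured animals and 2678 in the control. In the control CD81 in ExN stood at 21.9% and CD63 at 19.1% of their Endo levels, which rest on 13 and 1 UMIs, and P2RY12 at 7.86% of its microglial level. The part of free RNA in the neuronal values was not tested, so no neuronal expression of the members is read from them. The 4 microglial markers in both tables summed to 129 to 219.6 CPM in injured ExN against 61.5 in the control, with none of the 4 at 0. P2RY12 stood there at 12.2 to 13.2 CPM against 18.3, below the control, whereas CD74 stood above it.

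Other measures differed between the cohorts along with the members, and their part in the result was not tested. Summed levels of 31 ribosomal protein genes were higher in the 3 injured animals in each cell type, at 725 to 912 CPM against 438 in astrocytes, 1484 to 1849 against 530 in microglia and 4230 to 6741 against 588 in Endo nuclei. The 4 microglial markers in both tables summed to 232 to 308 CPM in injured oligodendrocytes against 75.2 in the control. Their sums were 199 to 320 against 128 in OPC and 402 to 742 against 206 in Endo nuclei. In injured astrocytes they summed to 180.3 to 266 CPM against 90.2, with none at 0. Within that list CD74 stood at 96.6 to 169 CPM against 1.16 in the control, whose microglia nearly lacked it, whereas P2RY12 stood at 42.4, 54.7 and 50.4 against 55.5, no higher than the control. The 3 endothelial markers summed to 285 to 418 CPM in injured astrocytes against 113 and to 75.5 to 118 in oligodendrocytes against 39.1. In microglia the order was turned, with 142 to 172 CPM of endothelial markers against 570.5 in the control, where 2 of the 3 were at 0, and 38.2 to 83.6 CPM of 5 fibroblast markers against 273. Blood myeloid and border macrophage markers, 6 of 9 in both tables, summed to 109 to 140.1 CPM in injured astrocytes against 18.5. Of the 6, 0 were at 0 in the injured astrocytes and 3 in the control ones. In microglia they summed to 723 to 1476 CPM against 643. Their sum in OPC was 989 to 1471 CPM against 1209, with 4 of the 6 at 0 in the control. It thus does not mark myeloid cells alone, here or in the splits below. Mural cell markers, 5 of 7, summed to 747 to 1099 CPM in injured Endo nuclei against 220, and none was at 0. Lymphocyte markers, 6 of 8, summed to 112 to 141 CPM in injured microglia against 72.3, where 4 of the 6 were at 0.

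Among all genes fitted in the same way, the members' log2 fold changes lay high. In astrocytes, oligodendrocytes and both neuron types, where the control sums were large, the percentiles were 97.5 to 99.4 for CD63, 95.5 to 99.1 for CD9 and 94.7 to 97.8 for CD81. In Endo, microglia and OPC they were 86.9 to 99.9, 71.5 to 86.5 and 77.2 to 88.8. The members were chosen on this contrast, so nothing is read from these positions. The median of all genes lay at 0.00 to 0.42 on the log2 scale across the cell types.

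The proportion of the members to each other was compared between the libraries. The ratio of CD63 to CD81 UMIs was 0.32, 0.593 and 0.67 in the astrocytes of F1565, F1619 and F1711 against 0.104 in the control. In Endo nuclei it was 0.215, 0.397 and 0.342 against 0.0769, and in oligodendrocytes 0.262, 0.534 and 0.419 against 0.0588. The control ratios rest on 5, 1 and 2 CD63 UMIs in astrocytes, Endo nuclei and oligodendrocytes, so the gap to the injured animals is uncertain. In each of these types F1565 was closest to the control. The ratio of CD9 to CD81 in astrocytes was 0.499, 0.529 and 0.499 against 0.417, and in Endo nuclei 0.272, 0.263 and 0.225 against 0.692, where the control rested on 9 and 13 UMIs.

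Within the injured cohort, the clusters deposited with the annotation showed where in each class the members lay. These clusters were built from the same genes, so their values are descriptions. Endo nuclei fell mainly into cluster 14 (1647 nuclei), cluster 19 (2005) and cluster 20 (705). CD81 was 1006, 963 and 821 CPM in cluster 14 in F1565, F1619 and F1711, against 320, 432 and 477 in cluster 19 and 447, 477 and 469 in cluster 20. In every animal cluster 14 was the highest of the 3 by a wide margin. CD63 had no such leader, with 173, 253 and 194 CPM in cluster 14, 119, 276 and 312 in cluster 19 and 148, 311 and 216 in cluster 20. CD9 in cluster 14 was 272, 229 and 162 CPM, above cluster 19 (84.3 and 153) in F1565 and F1619 and close to its 165 in F1711.

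Microglia fell into cluster 6 (3698 nuclei), cluster 16 (2216) and cluster 21 (1798). CD63 was 284, 172 and 178 CPM in cluster 6, 154, 143 and 153 in cluster 21 and 76.4, 110 and 120 in cluster 16. The order of the 3 clusters was the same in all animals, and cluster 16 was also the shallowest, with a median of 1497 UMIs per nucleus against 3727 and 4127. CD81 followed another order: cluster 6 held 422 CPM in F1565 but 191 and 179.5 in the other animals, below the 245 and 268 of cluster 21. Among InN, cluster 24 (393 nuclei) held 117, 156 and 135 CPM of CD81, and cluster 9 (329) held 113, 93.0 and 82.7. Cluster 5 (1497) held 68.8, 62.4 and 58.2. The part of free RNA in these InN values was not tested.

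**Figure D3:**
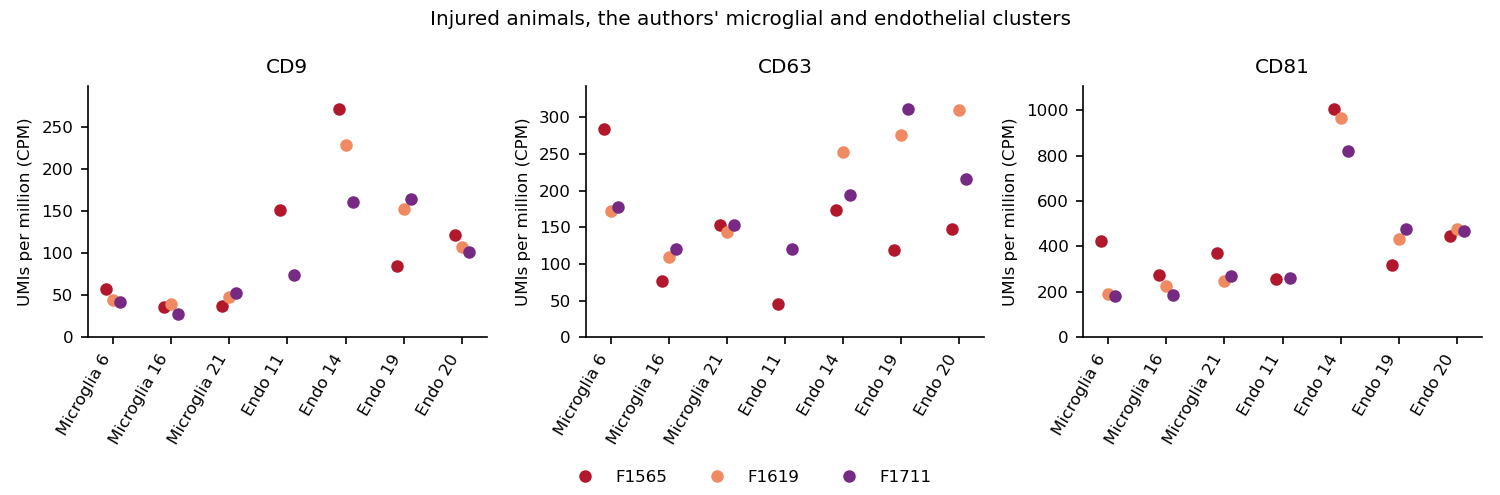
Levels of CD9, CD63 and CD81 (CPM) in the deposited microglial and endothelial clusters of the injured cohort, with 1 point per animal. CD81 separates Endo cluster 14 (821 to 1006 CPM) from Endo clusters 19 and 20 (320 to 477 CPM). Among the microglial clusters CD63 is lowest in cluster 16.

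Joint detection of the members in single nuclei was counted at equal depth. At 1000 UMIs, 50.04%, 52.7% and 52.5% of injured Endo nuclei held a UMI of at least 1 of the 3 genes, against 12.9% in the control, and 43.4%, 39.9% and 41.2% of astrocytes against 7.73%. All 3 genes were seen together in 1.24%, 5.03% and 1.80% of injured Endo nuclei and in 0.893%, 0.754% and 0.772% of astrocytes, and in none of the thinned control nuclei of either type. These low shares are those of sparse counts, and without thinning the astrocyte shares were 7.29%, 18.9% and 18.2%. CD63 and CD81 were found together in 152, 88 and 66 thinned microglia, where the product of their shares gives 114, 70.7 and 48.0, and in 76, 89 and 119 Endo nuclei, where it gives 58.9, 59.2 and 85.1. In these 2 cell types the counts of this pair exceeded the product in each animal. Over the 21 injured sums of animal and cell type they did so in 19 for CD63 with CD81, in 20 for CD9 with CD81 and in 14 for CD9 with CD63. Nuclei of 1 class differ in cluster and in contamination, so this is given as a description.

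Splits of nuclei inside the injured animals asked whether the members followed the class markers of microglia and astrocytes. Nuclei were called positive for a class gene where its log-normalized value passed 1 at a scale of 10000, UMIs were summed per animal and class, and each split was fitted over all genes with the animal as a block (edgeR quasi-likelihood test). A call needed a Benjamini-Hochberg adjusted p under 0.01, a natural-log fold change over 0.25 and a UMI in 10% of the nuclei of either class. Positive classes were deeper in each split, and the part of depth in the differences was looked at only by thinning, which also reassigns nuclei to classes.

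In microglia CD63 and CD81 were higher in CD74+ nuclei (6345) than in CD74- nuclei (1388). CD74, the invariant chain, guides MHC class II molecules and rises in activated microglia. From immunostaining, the paper assigns almost all macrophages in the ischemic zone to a peripheral origin, without fully excluding microglia there. The nuclei annotated as microglia may thus include infiltrating macrophages. P2RY12 had a UMI in 16.2%, 30.04% and 28.5% of them in F1565, F1619 and F1711. The share of such macrophages was not tested, so neither the CD74 nor the P2RY12 split is read as a state of microglia alone. CD63 stood at 230.9 against 126.9 CPM in F1565, 163.5 against 103.2 in F1619 and 174.2 against 108.3 in F1711, and every positive class lay above every negative one. The fitted log2 fold change was 0.77 ± 0.09 (SE), or 1.71-fold, higher in 3 of 3 animals, with an adjusted p of 3.35e-05 by edgeR's quasi-likelihood test. CD81 stood at 400.1 against 276.9, 219.2 against 169.3 and 220.7 against 162.1 CPM, so the classes overlapped between animals and differed in 1 direction within each. Its log2 fold change was 0.49 ± 0.08, or 1.41-fold, with an adjusted p of 0.00113 (edgeR).

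CD9 stood at 50.3 against 40.9, 45.3 against 41.9 and 45.8 against 35.2 CPM, with a log2 difference of 0.29 (95% interval 0.03 to 0.55) and an adjusted p of 0.321 by edgeR. Thus 2 of the 3 members were called higher, where 1.39% of the 12047 genes tested were. Median depth was 3192 UMIs in the positive and 2102 in the negative class, and 395 nuclei lay within 0.25 of the limit. Blood myeloid markers summed to 736 against 632, 1399 against 1606 and 1428 against 1683 CPM, higher in the positive class in F1565 alone. Astrocyte markers were lower in the positive class in each animal, at 141 against 164, 181 against 207 and 239.9 against 301 CPM, and mural cell markers slightly higher, at 67.6 against 61.9, 74.7 against 71.97 and 74.9 against 73.1. Their part in the calls was not tested. Without the animal block neither call held, at adjusted p = 0.691 for CD63 and 0.99997 for CD81 (edgeR). That fit leaves out the pairing of the classes by animal and called 0 of the 12047 genes. It therefore decides nothing about CD63 and CD81 in particular. The CD81 call was also lost without F1711 (0.48, edgeR adjusted p = 0.0192). At 1000 UMIs per nucleus its log2 difference of 0.34 fell under the fold limit, and so did its difference with any UMI as the class cut. CD63 was still called when thinned, at a smaller 0.54 (edgeR adjusted p = 5.02e-06), with 247 against 152 CPM in F1565, 193 against 118 in F1619 and a narrow 164 against 150.2 in F1711.

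P2RY12, a purinergic receptor of resting microglia, gave the opposite sign for CD63 in the classes as first read. In P2RY12+ nuclei (1708) CD63 was 163.5, 121.0 and 137.8 CPM against 231.9, 172.0 and 173.9 in P2RY12- nuclei (6025), lower in 3 of 3 animals. The fitted log2 difference was -0.40 ± 0.07, with an adjusted p of 0.000605 by edgeR. With nuclei thinned to 1000 UMIs and classes read again from the thinned counts, that difference was 0.00085 with an adjusted p of 0.999 (edgeR), so the call was lost. The animals then read -0.54, -0.03 and 0.34 in F1565, F1619 and F1711, and the effects of depth and of the new classes cannot be told apart. Median depth was 4482 against 2595 UMIs in the classes as first read. Without the block the adjusted p was 0.321 (edgeR). That fit leaves out the pairing by animal and called 8 genes higher and 23 lower.

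CD81 was 338.0, 206.1 and 191.4 CPM against 396.4, 215.2 and 219.0 across the same classes, a log2 difference of -0.11 (-0.24 to 0.01) with an adjusted p of 0.231 by edgeR. CD9 had a log2 difference of -0.23 (-0.48 to 0.02) and was lower in 2 of 3 animals, with an adjusted p of 0.232 (edgeR). A single member was thus called lower, where 3.19% of the 12219 genes tested were. Summed lymphocyte markers were lower in the P2RY12+ class in each animal, at 54.7 against 128, 93.6 against 165 and 91.2 against 145 CPM. Endothelial markers were higher in that class in each animal, at 267 against 146, 173 against 127 and 193 against 160 CPM, and so were astrocyte markers, at 151 against 142, 223 against 165 and 282 against 236. Blood myeloid and border macrophage markers were also higher in each animal, at 729 against 721, 1558 against 1363 and 1685 against 1371 CPM, and excitatory neuron markers lower, at 1095 against 1266, 1071 against 1183 and 1125 against 1258. Inhibitory neuron and microglial markers were lower in each animal too. The part of these lists in the CD63 difference was not tested.

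In astrocytes none of the 3 genes was called in either split. GFAP, an intermediate filament protein, marked 1289 positive and 818 negative nuclei. CD81 was 362.6, 301.3 and 294.3 CPM in GFAP+ against 317.1, 203.3 and 207.4 in GFAP- nuclei, with a log2 fold change of 0.47 ± 0.12 and an adjusted p of 0.0485 by edgeR, which missed the limit of 0.01. It lay higher in the positive class in 3 of 3 animals, and with no filter on low counts it was called (0.49, edgeR adjusted p = 0.009). With thinned nuclei and classes read again it differed by 0.23 (edgeR adjusted p = 0.664) and was higher in F1565 and F1711 but not in F1619, and the difference of CD9 was 0.18. CD9 was 204.3, 154.8 and 136.1 CPM against 127.6, 116.8 and 134.5, a log2 difference of 0.43 (0.15 to 0.71) with an adjusted p of 0.115 by edgeR. For CD63 the difference was 0.06 (-0.20 to 0.31), and it was higher in 2 of 3 animals. None of 3 was called, where 1.32% of the 10228 genes tested were. Median depth was 4293 against 3052.5 UMIs, and endothelial markers summed higher in the GFAP+ class in each animal, at 467 against 355, 319 against 212 and 368 against 255 CPM. Mural cell markers were also higher in that class in each animal, and excitatory neuron and microglial markers lower. The part of these lists was not tested.

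RTN4A, or NogoA, a neurite growth inhibitor, is an isoform of the gene RTN4 and names the astrocyte classes of the study. The counts cannot separate isoforms, so the classes were read from RTN4 as a whole, which marked 1597 positive and 510 negative astrocytes. CD9 was 180.2, 143.8 and 139.2 CPM in RTN4A+ against 130.9, 133.9 and 121.2 in RTN4A- nuclei, a log2 difference of 0.25 (-0.01 to 0.52) with an adjusted p of 0.358 by edgeR. CD63 differed by 0.17 (-0.10 to 0.43) and CD81 by 0.10 (-0.11 to 0.32) on the log2 scale, with adjusted p of 0.624 and 0.727 (edgeR). With nuclei thinned to 1000 UMIs and the classes read again, CD63 differed by 0.65 (edgeR adjusted p = 0.0382), higher in 3 of 3 animals and still not called. Median depth was 4249 against 2735 UMIs. Astrocyte markers summed lower in the RTN4A+ class in each animal, at 7726 against 13182, 7385 against 9348 and 8452 against 12277 CPM, and endothelial markers higher, at 449.98 against 283, 294 against 223 and 343 against 324. Mural cell, excitatory neuron and microglial markers were lower in each animal as well, and OPC markers higher, and the part of these lists was not tested. None of 3 was called, where 3.18% of the 10106 genes tested were. These intervals leave room for a difference in each gene, so likeness of the classes is not shown.

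**Figure D4:**
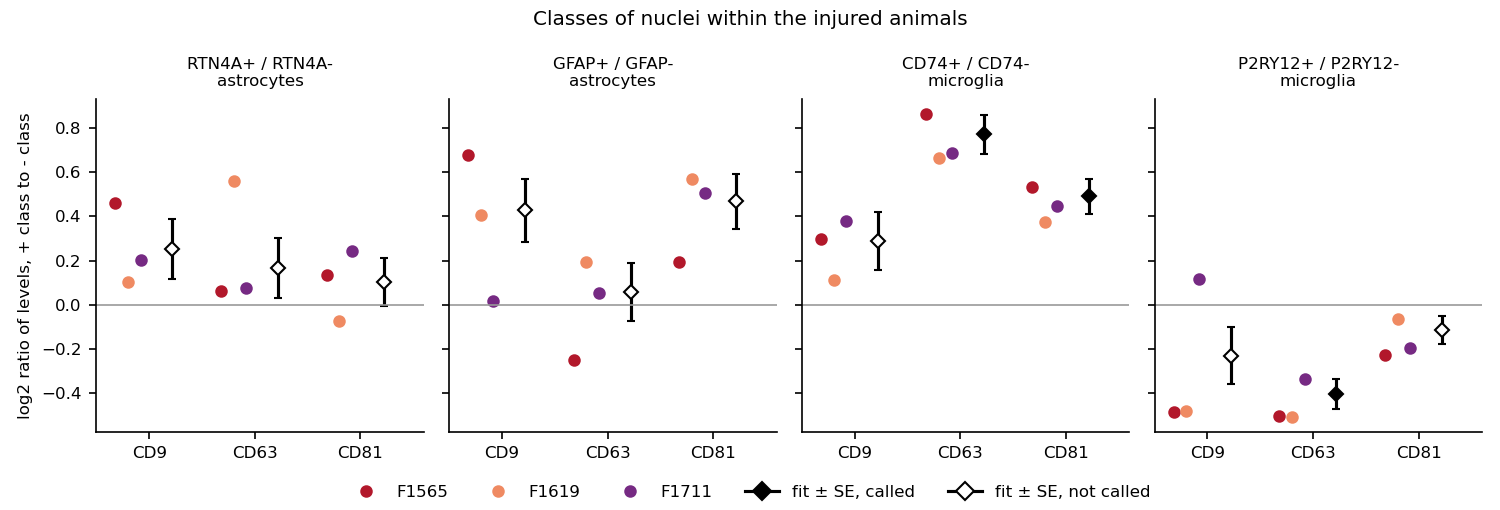
Log2 ratio of each member's level in the positive class to that in the negative class, for 4 splits within the injured animals. Each animal is 1 point, and the diamond is the fitted value ± SE, filled where called. CD63 (0.77) and CD81 (0.49) lie above 0 for CD74 in all 3 animals, and CD63 lies below 0 (-0.40) for P2RY12.

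Genes related to the trio were followed through 4 lists, counted over cell types in fits of the 3 injured libraries against the control library. The spread in these fits comes from the injured animals alone and is assumed to hold for the control, a single pooled library whose variation between animals is not known. Calls of the lists rest on that assumption and cannot tell injury from the other differences between the cohorts. The lists were also chosen with earlier results of these data known, so their calls are given as descriptions. Endo nuclei of the cohorts differed in fibroblast, endothelial and mural cell markers, as given above, and the part of this in the Endo values was not tested. Across all genes 2.35% of 90333 gene and cell type pairs were called and 1.61% were called higher. Other tetraspanins were called higher in 5 of 133 pairs and lower in 0, with 24 of the 30 listed genes tested. Their median log2 fold change was 0.50 and 69.9% of pairs lay above 0, pooled over the cell types as for the lists below. By single cell type, the medians of all genes lay between 0.00 and 0.42 with 50.2% to 61.8% above 0. The like medians ran from -0.02 to 1.48 for other tetraspanins and from 0.11 to 1.46 for tetraspanin partners. For late endosome and lysosome genes they ran from 0.20 to 1.75, and for exosome genes from -0.16 to 0.86. Without F1565 the calls of the 4 lists, in the order given here, were 8, 10, 28 and 5 higher and 2, 0, 1 and 3 lower, and without F1619 they were 2, 2, 4 and 1 higher and 0 lower. Without F1711 other tetraspanins and exosome genes each had 1 lower call. DESeq2 gave 2 lower calls for exosome genes, and thinning to 1000 UMIs gave 1 for partners. Without F1565 and without F1619, 7.03% and 1.09% of the pairs of all genes were called, so the list counts move with the whole table.

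TSPAN7, listed under its Ensembl identifier ENSCJAG00000000758, is a tetraspanin of neurons and vessels and was called in 3 cell types. In Endo nuclei it stood at 146.2, 141.0 and 127.2 CPM against 29.4, a fitted log2 fold change of 2.36 ± 0.38 (SE). In ExN it stood at 248.5, 231.2 and 270.2 CPM against 113.2 (1.26 ± 0.15), and in InN at 282.4, 302.6 and 333.7 against 124.2 (1.40 ± 0.16). TSPAN7 thus stood higher in both neuron types than in Endo nuclei, unlike each of the members. CD151, which binds laminin-receptor integrins, was 184.3, 167.3 and 158.6 CPM in Endo nuclei against 58.8 (1.67 ± 0.32). TSPAN2, a tetraspanin of oligodendrocytes, was also called in Endo nuclei, at 108.5, 92.5 and 106.5 CPM against 14.7 from 3 control UMIs.

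Partners and cargo of tetraspanins were called higher in 4 of 103 pairs, and lower in 0. ITGB1, the integrin beta1 chain, stood at 433, 486 and 453 CPM in injured Endo nuclei against 83.3 (2.59 ± 0.29). In astrocytes it stood at 156, 218 and 167 CPM against 34.7 (2.48 ± 0.30). HBEGF, a growth factor precursor that binds CD9, stood at 45.1, 34.1 and 37.8 CPM in astrocytes against 4.62 (3.18 ± 0.48). TIMP1, a metalloprotease inhibitor that binds CD63 and is listed as ENSCJAG00000012555, stood at 92.3, 132 and 112 CPM in Endo nuclei against 14.7 from 3 UMIs. The median over the list was 0.40 with 71.8% of pairs above 0.

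Late endosome and lysosome genes were called higher in 10 of 143 pairs and lower in 0, with a median of 0.65 and 81.8% of pairs above 0. GRN, the lysosomal and secreted progranulin, was called in 5 cell types and made up 5 of the 10. GRN stood at 57.6, 72.9 and 56.5 CPM in oligodendrocytes against 5.48 (3.59 ± 0.38). In astrocytes it stood at 43.1, 47.2 and 41.0 against 5.78 (3.02 ± 0.40). LIPA, the lysosomal acid lipase, stood at 705, 529 and 384 CPM in astrocytes against 94.8 (2.62 ± 0.38). NPC2, a lysosomal cholesterol carrier, and TPP1, a lysosomal peptidase, made up the other calls in Endo nuclei and neurons. In neurons GRN (37.5, 46.0 and 45.1 CPM in InN against 15.2) and NPC2 (15.9, 26.4 and 25.004 against 3.24) were called as well, and the part of free RNA in these values was not tested.

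Genes of exosome formation and release were called in 1 of 131 pairs, with a median of 0.30 and 58.8% of pairs above 0. That call was SDCBP, which encodes syntenin, an adaptor that loads CD63 into vesicles. It stood at 193, 210.1 and 196 CPM in Endo nuclei against 29.4 from 6 UMIs (2.89 ± 0.35). The share called, near or under the 1.61% of all genes called higher, gives no result about the list. In microglia, where the control held 129 nuclei, edgeR called 0 genes of any kind, with 2857 genes at an unadjusted p under 0.05 and 318 calls by DESeq2.

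**Figure D5:**
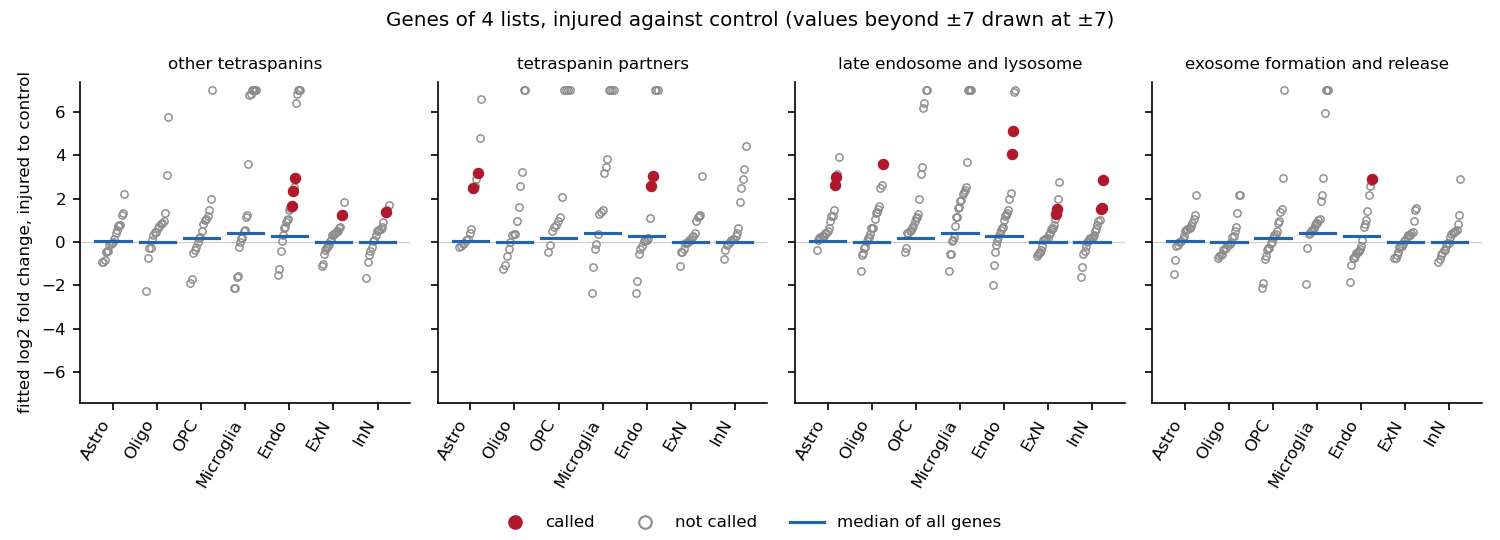
Fitted log2 fold changes, injured against control, for the genes of 4 lists in each cell type, with called pairs marked. Values beyond ±7 (33 points) are drawn at ±7; calls number 5, 4, 10 and 1 for other tetraspanins, partners, late endosome and lysosome, and exosome formation, and all lie above 0.

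Over the 28 sums of library and cell type, the genes most like each member were ranked by Pearson's r of log2(CPM + 1) among 10300 genes with a mean of at least 10 CPM. The sums share libraries, depth and cohort, so these values are descriptions. CD63 and CD81 were each other's nearest gene, with r = 0.961. For CD63 they were followed by TAPBPL (0.951), SERPINB1 (0.949), HSPA5 (0.945) and S100A6 (0.945), and for CD81 by HSPA5 (0.955), SERPINH1 (0.946), ENSCJAG00000022038 (0.942) and PLP2 (0.936). CD9 had a lower r with both, at 0.740 with CD63 (position 118 of 10300) and 0.815 with CD81 (position 33), and its nearest genes were TRIP6 (0.915), RDX (0.890), LARP7 (0.890), ARL6IP6 (0.889) and LCAT (0.877). Over the 21 injured sums alone, CD63 and CD81 had an r of 0.910, against 0.811 for CD9 with CD63 and 0.837 for CD9 with CD81, and the nearest genes were CLIC4 for CD9 (0.971), REST for CD63 (0.957) and SELENOS for CD81 (0.971).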

How the data were processed

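The authors deposited raw UMI counts per gene and nucleus, 1 table for each cohort, with a cell type and cluster for each nucleus. Per the labels and the study's methods, reads were aligned with Cell Ranger 3.1.0 to a pre-mRNA model of the calJac3 genome, so introns were counted. Nuclei were then filtered, by Scrublet for the injured cohort and by gene number for the control, and clustered with Seurat in each cohort alone. No further doublet filter was applied here.

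Counts of the nuclei of each type were added up within a library. CPM divides by all UMIs of that sum and multiplies by 1000000. Total depth was 48722394, 35737777 and 42956736 UMIs for F1565, F1619 and F1711 and 22832703 for the control. Class splits and the 4 lists were fitted over all genes with edgeR 4.0.16 in R 4.3.3 (quasi-likelihood test, TMM, filterByExpr, Benjamini-Hochberg adjustment), and the code was tested on simulated counts. The study's methods gave the limits of a call and the class cut. Libraries of the same animal pair the classes: deviations of the 2 classes of an animal from the class means correlated at 0.178 to 0.738. Other software was Python 3.11.15 with NumPy 2.4.6, pandas 2.3.3, SciPy 1.17.1 and Matplotlib 3.10.9.

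The members and lists were chosen with earlier results of these data known. Named genes were the members, all called other tetraspanins, the 5 pairs of largest fold change per list among those called with more than 3 UMIs in both cohorts, and the 5 genes most like each member. CD74, P2RY12 and MBP in neurons, the ribosomal protein genes, TIMP1 and TPP1 were chosen after their values were seen. Alternatives were DESeq2 1.42.0, RLE size factors, no low-count filter, thinning to 1000 UMIs, nuclei of at most 2500 genes, TMM-scaled libraries, any UMI as the class cut, no animal block and leaving out each animal. Sequences of the members were not used here, and single values of some listed genes are not reported here.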

Additional observations from a re-analysis of the deposited data

Results flagged for a closer look

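TSPAN32, a tetraspanin of blood cells, was counted in the injured table and not listed in the control table, so that no comparison above used it. It had 27 UMIs over the 3 injured libraries, of which 12 lay in astrocytes and 10 in microglia. The injured libraries held 127416907 UMIs and the control 22832703, so the lack of this gene in the control list does not show a difference. The control level of this gene was not analysed here.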

How the results depend on the processing

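Each member stayed above the control in all 3 animals in all 21 pairs under every alternative that was run, but at 1000 UMIs 5 of these pairs had no control UMI, where any injured UMI lies above. Log2 ratios of single pairs shifted by 0.10 to 0.25 with TMM-scaled libraries and by -0.85 to 1.08 with nuclei of at most 2500 genes. At 1000 UMIs they shifted by -1.31 to 1.42, where pairs with no control UMI could not be given a ratio. Leaving out an animal moved 0 of 60 values by over 1 SD. With 3 animals of similar level that limit can hardly be passed, so nothing is read from it.

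Without the animal block the split counts fell from 321 to 0 (RTN4A), from 135 to 4 (GFAP), from 197 to 0 (CD74) and from 935 to 31 (P2RY12), with 894 and 546 genes at an unadjusted p under 0.05 for RTN4A and CD74. In those unblocked fits the log2 differences were 0.80 for CD63 and 0.53 for CD81 (CD74 split) and -0.42 for CD63 (P2RY12 split), none called. DESeq2 gave 95 calls for RTN4A and 99 for CD74; no low-count filter gave 366 for GFAP, 351 for CD74 and a call of CD81 for GFAP at 0.49; thinning gave 60 for RTN4A, 16 for GFAP and 293 for P2RY12; any UMI of the class gene gave 489 for RTN4A. CD81 in the CD74 split was 0.34 when thinned and 0.36 with any UMI, both under the fold limit, and 0.42 to 0.53 with an animal left out, where it lost its call without F1711. The CD63 difference in the P2RY12 split was lost when thinned (0.00085), and in the GFAP split it ranged from -0.044 (without F1619) to 0.17. Leaving out an animal gave 142 (F1565) to 364 calls for RTN4A, with 200 without F1711, 38 (F1711) to 150 for GFAP, with 43 without F1619, 79 (F1711) to 329 (F1565) for CD74 and 805 to 963 for P2RY12.

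List counts moved as well. Other tetraspanins had 2 calls when thinned and 2 (F1619) to 10 (F1565) with an animal left out; partners had 2 to 10, likewise; late endosome and lysosome genes had 19 with DESeq2, 4 when thinned and 4 (F1619) to 29 (F1565); exosome genes had 4 with DESeq2, 2 without the filter and 1 to 8 (F1565), with 4 without F1711. All genes had 3302 with DESeq2, 1036 when thinned and 971 (without F1619) to 6203 (without F1565), with 3423 without F1711. The cause of these changes was not tested, except that thinning leaves fewer UMIs and fewer genes. The pooled control and its 129 microglia and 171 OPC limit every cohort value.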
